A study of Homo sapiens with 8 samples.

Results

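The array described here compared PANC1 cells transfected with miR-130-3p with mock PANC1 cells. PANC1 is a human cell line from a pancreatic ductal carcinoma. It was found by its label, and it is 1 of 8 Agilent Human GE 60K arrays deposited together. RNA of cells transfected with miR-130-3p by Lipofectamine RNAiMAX was labelled with Cy5 (red), and RNA of mock cells, labelled as not transfected, with Cy3 (green). The time after transfection and the dose are not given in the labels. The other 7 arrays each set mock cells in Cy3 against transfected cells of the same line in Cy5. One of them was again of PANC1 and held miR-130-5p. In the prostate cancer line PC3 the transfected RNAs were si-PIR-2 and si-PIR-3, which are siRNAs against PIR. In SK-MES-1, a lung cancer line, they were miR-144-3p on one array and miR-144-5p on another. The last arrays used miR-204-5p in the breast cancer line MDA-MB-231 and in SW1990, a further pancreatic line. Each condition had 1 array and no dyes were swapped, so no test between conditions was possible and no p-value is given. None of the arrays held cells transfected with a control RNA, so an effect of miR-130-3p and an effect of transfection or of the Cy5 dye cannot be told apart on this array alone. The other 7 arrays, which carry the same dye layout, serve as background and are not replicates.

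A miRNA pairs through its seed, which is bases 2 to 8 from its 5′ end, with complementary sites that lie mostly in the untranslated end of messenger RNAs, and paired messengers are degraded or translated less. miR-130a-3p, miR-130b-3p, miR-301a-3p, miR-301b-3p and miR-454-3p are counted as 1 family because they share a seed. Reported targets of the family include receptors and transducers of TGF-beta and BMP signalling and PPARG. The label does not say whether the transfected RNA was miR-130a-3p or miR-130b-3p. The mature sequences available from RefSeq (GRCh38.p14) are shown to define the letters searched below, with the seed in capitals. All 4 strands of the 3p family held the same seed.
hsa-miR-130b-3p: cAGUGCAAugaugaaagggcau
hsa-miR-301a-3p: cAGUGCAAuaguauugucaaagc
hsa-miR-301b-3p: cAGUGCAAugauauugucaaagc
hsa-miR-454-3p: uAGUGCAAuauugcuuauagggu
The 5p strands, shown because miR-130-5p was transfected into the same cell line on the neighbouring array, had other seeds.
hsa-miR-130a-5p: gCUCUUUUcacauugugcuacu
hsa-miR-130b-5p: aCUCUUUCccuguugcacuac
The mature miR-130b-3p lies at chr22:21653354-21653375 and miR-130b-5p at chr22:21653316-21653336, both on the plus strand.

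Values are log2 ratios of Cy5 over Cy3 as the scanner software gave them, so that a ratio of -1 is a halved and a ratio of 1 a doubled signal relative to mock cells. A probe was used where either channel was well above background. On the miR-130-3p array, 30287 probes for 23206 gene names passed, and 5368 genes had at least 2 such probes. Cy3 was well above background on 41.4% of probes and Cy5 on 52.0%. Repeat spots of the same probe differed by a median SD of 0.0358, whereas different probes of a gene differed by a median SD of 0.175. The latter measures how far probes disagree on 1 array. It holds no variation between cultures, transfections or arrays, which could not be measured here. All passing probes shared a sign in 3534 of the 5368 genes (65.8%). The markers of PANC1 were present, with mean Cy3 signals on the brightest probe of 12701 for KRT18, 10409 for KRT19 and 26912 for VIM, whereas INS, PRSS1, CPA1, PECAM1, PGR, TP63 and KRT5 were not well above background in either channel. At least 1 probe each of PTPRC, CD3E, VWF, GCG, KLK3 and ESR1 passed in some channel, with mean signals of no more than 53.9. The Cy3 signals of both PANC1 arrays differed by an SD of 0.183 on the log2 scale, against 1.02 to 1.19 between arrays of different lines. The labels do not state whether both PANC1 arrays used the same mock RNA, so their ratios may share it and are only set side by side.

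Fewer genes were lower than higher after miR-130-3p, except when both channels had to be above background, which gave 56 lower and 51 higher genes. A gene was called lower where the median over its probes was -1 or less, at least 2 probes passed and all were below 0, and called higher by the mirrored rule. This gave 62 lower genes (1.15% of the 5368) and 151 higher genes (2.81%). By the same rule, the other arrays had 12 to 257 lower and 61 to 209 higher genes, and the highest numbers in both directions were those of miR-130-5p in PANC1. Every array of another line also had fewer lower than higher genes, so this imbalance was not particular to miR-130-3p. Only miR-130-5p had more lower (257) than higher genes (209). Of the 62 lower genes, 50 also lay below all of the other arrays on which they were measured (0.945% of the 5290 genes measured on at least 4 of them). Of the 151 higher genes, 113 lay above all of the others (2.14%). In RNA of a whole culture, fewer cells that express a gene and less of its RNA per cell cannot be told apart. The numbers of calls depended on how background was treated. With normexp background correction and loess normalization in limma, which pulls the ratios of dim probes toward 0, 7 genes were lower and 18 were higher. All passing probes of a gene were above background in both channels for 53 of the 62 lower genes but only for 46 of the 151 higher genes, and for 45 of the higher genes no probe was above background in the mock channel. The plot of ratio against signal shows where these genes lie.

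**Figure D1:**
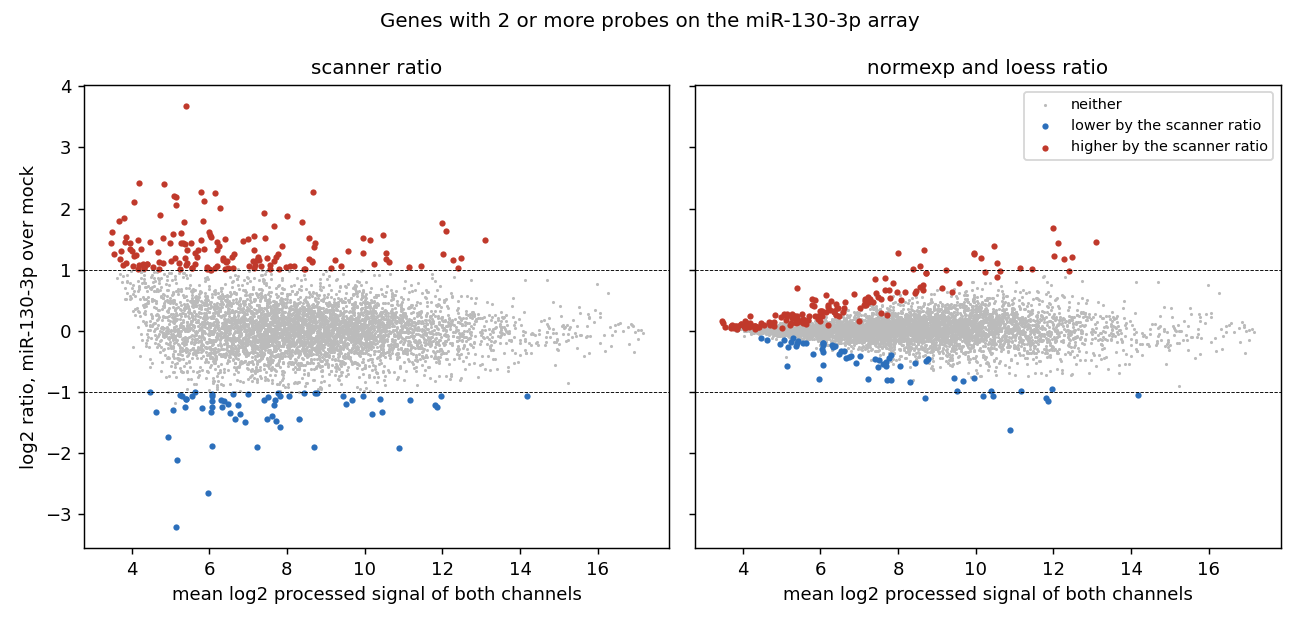
Each point is a gene with at least 2 probes on the miR-130-3p array, with the mean log2 processed signal of both channels on the horizontal axis and the log2 ratio of miR-130-3p over mock on the vertical axis. The left panel gives the scanner ratio and the right panel the normexp and loess ratio of the same genes, dashed lines mark -1 and 1, and the 62 lower (blue) and 151 higher (red) genes of the scanner ratio draw in toward 0 at low signal in the right panel.

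Among the genes that lay below all other arrays, those with the lowest ratios were SLC4A8 (-3.21), LOC100506827 (-2.64), LOC101929643 (-2.12), PDZD11 (-1.92), MTL5 (-1.90), NKX6-2 (-1.90), GDA (-1.87), RPS6KL1 (-1.73), MOK (-1.57), TNFRSF6B (-1.49), UBE3C (-1.48), MREG (-1.45), LINC01186 (-1.44), PNMA6A (-1.39) and AOX1 (-1.37). SLC4A8 encodes a bicarbonate transporter of the plasma membrane, GDA is guanine deaminase, TNFRSF6B is a decoy receptor for FAS ligand and UBE3C is a ubiquitin ligase. MTL5 is now named TESMIN in RefSeq. Most of these genes were dim. After miR-130-3p, 1 of the probes of SLC4A8 (-4.70), 1 of those of RPS6KL1 (-2.94) and 2 of the 3 of LOC101929643 were not well above background, so that these probes give no measured size of the fall. SLC4A8 had a mean processed signal, which is the intensity after background subtraction and dye normalization, of 131 in mock cells and 12.4 after miR-130-3p, its probes gave -4.70 and -1.72, and its normexp ratio was -0.57.

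PDZD11, which encodes a small PDZ domain protein that binds ion transporters at the membrane, was the gene of this group with the firmest values. Its probes gave -1.95 and -1.89, its mean processed signal was 4306 in mock cells and 1153 after miR-130-3p, and its normexp ratio was -1.62. On the miR-130-5p array it gave -0.41, and on the 6 arrays of other lines it lay between -0.86 and 0.22. NKX6-2, a homeobox transcription factor, gave -2.36 to -1.48 over 3 probes, with -1.10 under normexp and 1.15 on the miR-130-5p array. Probes of NKX6-2, GDA, TNFRSF6B, UBE3C, LOC100506827 and LOC101929643 included at least 1 with a run of 4 G, a sequence that can bind unspecifically on arrays. Such runs also occurred in probes of genes named below. They include both of BMF, the higher of EIF4EBP2 and the only passing ones of GDF15, DEPTOR, SCARB1, SNAI1, ACAT2 and CLDN3. Among all genes with at least 2 probes, 12.2% of probes held one.

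In 7 genes the scanner ratio and the normexp ratio both passed -1 and both lay below all other arrays. These were picked by that rule after the values had been seen, and they were CALM2, CTSA, LRFN4, MYBL1, NKX6-2, PDZD11 and RFX5. CALM2, 1 of the calmodulin genes, had the brightest signal of the 7, at 29009 in mock cells and 14019 after miR-130-3p. Its ratio was -1.06 by probes at -1.10 and -1.03, against -0.05 on the miR-130-5p array. CTSA, the lysosomal protein cathepsin A, gave -1.21 (probes -1.27 and -1.15) against 0.50 with miR-130-5p. MYBL1, a transcription factor of the MYB family, gave -1.33 (probes -1.57 and -1.08) and also -1.10 with miR-130-5p. RFX5, which drives MHC class II transcription, gave -1.36 (probes -1.47 and -1.25) against -0.60 with miR-130-5p. LRFN4, a synaptic adhesion protein, gave -1.24 (probes -1.37 and -1.12), and it was above 0 on all 7 other arrays, from 0.02 to 1.05. All probes of CTSA and LRFN4 held a run of 4 G.

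**Figure D2:**
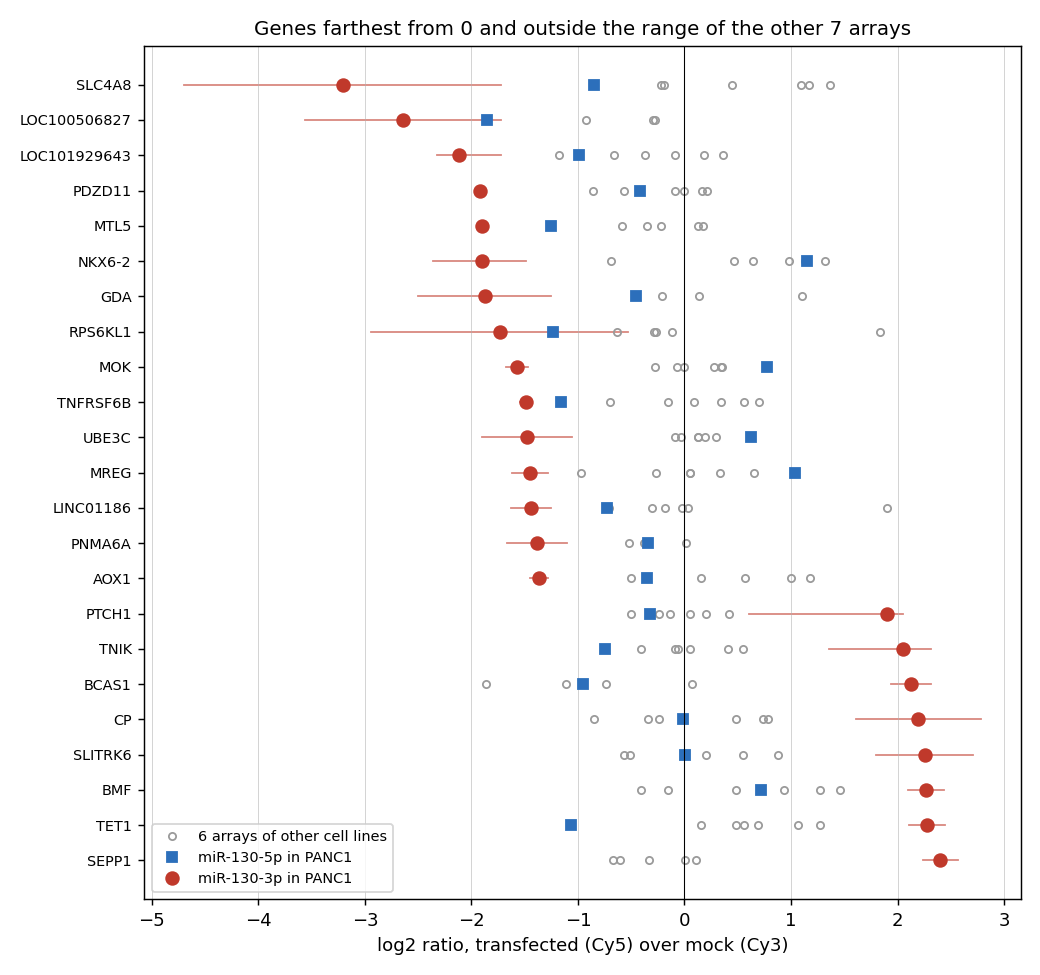
The 15 lowest and 8 of the 10 highest genes outside the range of the other arrays are plotted by log2 ratio of transfected over mock cells on the horizontal axis. Red circles give miR-130-3p with a line from its lowest to its highest probe, blue squares miR-130-5p in the same line and grey circles the 6 arrays of other lines. The red circles run from -3.21 to -1.37 and from 1.90 to 2.40, outside the other symbols in every row.

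Among the genes that lay above all other arrays, those with the highest ratios included SEPP1 (2.40), TET1 (2.27), BMF (2.27), SLITRK6 (2.25), CP (2.20), BCAS1 (2.13), TNIK (2.05) and PTCH1 (1.90). For SEPP1 (selenoprotein P, now SELENOP), CP (ceruloplasmin), the kinase TNIK and the hedgehog receptor PTCH1, no probe was well above background in mock cells, so that the ratio has no measured size. A lower limit was taken as the median over the probes of the Cy5 signal against whichever was higher, the lowest Cy3 signal among probes well above background or the probe's own Cy3 signal, per channel after normexp, loess and Aquantile normalization. Where the probe's own signal was the higher, the limit is its normalized ratio, and no dye swap balances the dyes. This limit was 1.20-fold for SEPP1, 1.20-fold for CP, 1.18-fold for TNIK and 1.05-fold for PTCH1. It holds no margin for noise, whereas different probes of a gene differed by a median SD of 0.175 on the log2 scale. A limit near 1-fold, such as that of PTCH1, therefore shows no rise. BMF, a BH3-only promoter of apoptosis, SLITRK6 and BCAS1 had 1 of 2 probes above background in mock cells. Their normexp ratios were 0.53, 0.59 and 0.51. BMF also gave 1.27 with si-PIR-2 and 1.46 with si-PIR-3 in PC3. TET1, which oxidizes methylated cytosine in DNA, was measured in both channels by both probes, at 459 in mock cells and 1992 after miR-130-3p. Its probes gave 2.10 and 2.44 and its normexp ratio was 1.33, against -1.07 with miR-130-5p and 0.16 to 1.27 in the other lines.

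TET1 was among 15 genes that passed 1 and lay above all other arrays under both the scanner and the normexp ratio. This set was also chosen after values had been seen. MKNK2, a kinase of the translation factor eIF4E, gave 1.63 (probes 1.44 and 1.82), with a processed signal of 7411 in mock cells and 25951 after miR-130-3p, against 0.52 with miR-130-5p. EIF4EBP2, an eIF4E binding protein that holds back translation, gave 1.20 (probes 0.88 and 1.51). It gave -1.55 with miR-130-5p but -0.91 to 1.04 in the other lines, so it lay only slightly above the highest of them. SPRY1, an inhibitor of receptor tyrosine kinase signalling, gave 1.27 (probes 1.26 and 1.28), RPS6KA3, a kinase downstream of ERK, gave 1.07 (probes 1.03 and 1.11), RRAS2, a small GTPase related to RAS, gave 1.16 by probes that overlap and PRKACB, a catalytic subunit of protein kinase A, gave 1.27 over 3 probes. CYP1B1, a cytochrome P450 of estrogen and hydrocarbon metabolism, gave 1.48 (probes 1.44 and 1.52) at 6126 in mock cells and 17339 after miR-130-3p. It gave -0.35 with miR-130-5p and -0.09 to 1.14 in the other lines. TFPI, the inhibitor of tissue factor, gave 1.56 over 3 probes, and also 1.04 with miR-130-5p. TMEM189 (now PEDS1), a desaturase of plasmalogen synthesis, gave 1.76 (probes 1.74 and 1.77), against 0.75 with miR-130-5p. The others were FRMD5 (1.51), HIC2 (1.48), NR6A1 (1.16), PLEKHA1 (1.26) and PLEKHH2 (1.88). HIC2 also gave 1.04 with miR-130-5p, and PLEKHA1 reached 1.12 with miR-204-5p in MDA-MB-231.

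Probes whose own sequence holds a match to the seed had lower ratios than other probes on this array. The array probes are 60-mers in the sense of the transcript, and the letters searched were TTGCACTA for an 8mer site, TTGCACT for a 7mer-m8, TGCACTA for a 7mer-A1 and TGCACT for a 6mer, each probe counted once under its longest match. Of all 58201 probes on the array, 0.0790% held the 8mer, 0.333% the 7mer-m8, 0.172% the 7mer-A1 and 0.912% the 6mer. A match in a probe is a description of its letters and does not say that the site is used, and sites outside the 60 bases are not seen. The median ratio was -0.21 for 23 probes with an 8mer, -0.15 for 48 with a 7mer-A1, -0.06 for 112 with a 7mer-m8, 0.01 for 306 with a 6mer and 0.03 for 29798 with none.

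Set against the median of all probes, the 8mer probes were lower by 0.24 (difference -0.24), the 7mer-A1 probes differed by -0.18, the 7mer-m8 probes by -0.09 and the 6mer probes by -0.02. In each of these 4 classes the miR-130-3p array had the lowest difference of the 8 arrays. For 8mers the miR-130-5p array of the same cells had -0.15 and the 6 arrays of other lines lay between -0.10 and 0.16. For all 183 probes with an 8mer or 7mer together the difference was -0.16 with miR-130-3p, -0.07 with miR-130-5p and -0.03 to 0.10 in the other lines. Among these probes, 49 (26.8%) had a ratio of -0.5 or less, against 10.8% of all probes. The miR-130-5p array had 23.2% for the same letters, against 18.2% of all its probes. With miR-130-3p, 10 of the 183 (5.46%) were at -1 or less, against 1.87% of all 30287 probes.

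The ratio of a probe was below all other arrays in 48 of the 169 such probes that at least 4 of them measured (28.4%), against 15.7% of all probes, and above all of them in 7.69%, against 13.2%. The difference of -0.16 was smaller with normexp (-0.054), and it was 0.0 without the filter on dim probes, where many dim probes are listed at a ratio of exactly 0. It was -0.25 among the brighter probes, that is, those above background in both channels and at or over their median signal. With the letters of the opposite strand, such as AGTGCAA in place of TTGCACT, the difference was 0.0008, as the plot of seed classes shows. Probes of 1 gene, and probes that lie close together, are not independent of each other.

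**Figure D3:**
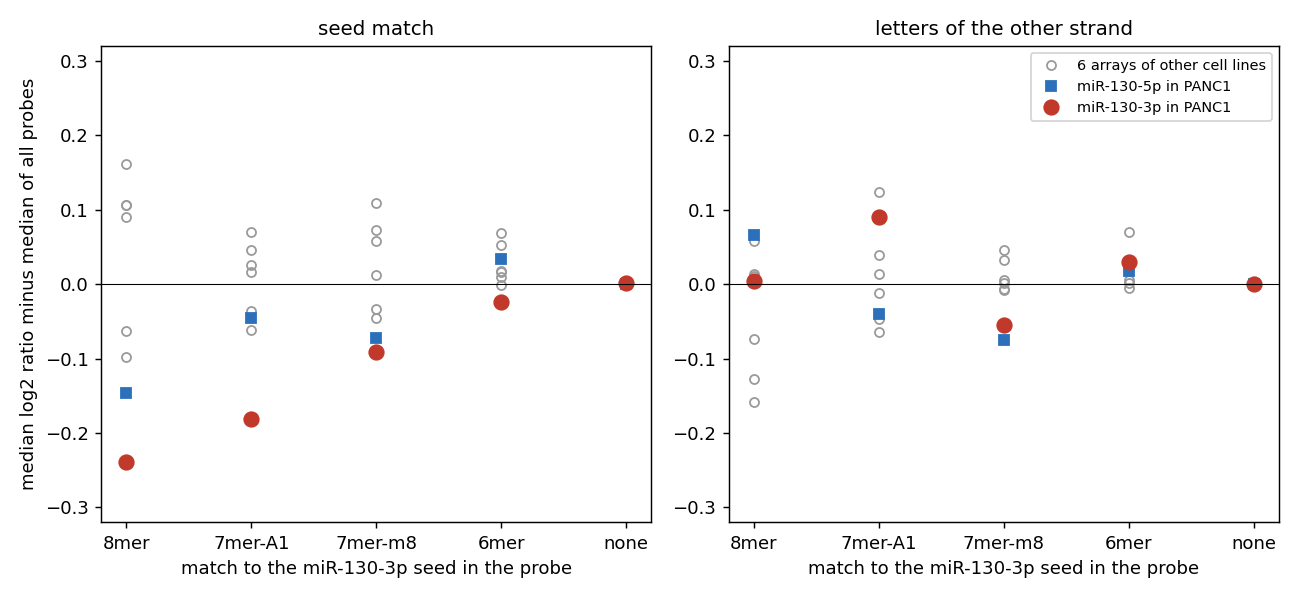
For each class of match in the probe sequence, the vertical axis gives the median log2 ratio minus that of all probes of the array, with miR-130-3p in red, miR-130-5p in blue and the 6 arrays of other lines in grey. On the left, for the seed match, miR-130-3p is the lowest symbol for the 8mer (-0.24), the 7mer-A1 (-0.18), the 7mer-m8 (-0.09) and the 6mer (-0.02), and on the right, for the letters of the other strand, it lies within the others or near 0.

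The sites below are those of probes with low ratios and clear signal, chosen after the values were seen, and each is given as 30 bases of its probe with the match in capitals. Whether a site lies in a coding or untranslated exon was not assigned.
PDZD11, 7mer-m8: cccaaaccataTTGCACTtttagttcccta
PDZD11, 7mer-A1: agagaggactgTGCACTAgagagttacagc
MREG, 7mer-m8: tgcagggagtaTTGCACTgaagatctttgc
FOSL1, 8mer: tctagcacaatTTGCACTAaatcagagaca
THOP1, 8mer: cctggtctttgTTGCACTAacacgtctcct
CLN6, 8mer: atttctcctttctgggcctcatTTGCACTA
LINC00116, 7mer-m8: aatgacttcttcTTGCACTttatgaatcaa
By the annotation of the array (hg19), the probes map to chrX:69506742-69506801 and chrX:69506916-69507134 for PDZD11, chr2:216808100-216808159 for MREG, chr11:65660098-65660157 for FOSL1, chr19:2813491-2813550 for THOP1, chr15:68499949-68500008 for CLN6 and chr2:110969137-110969196 for LINC00116. THOP1 lies on the plus strand and the others on the minus strand.

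FOSL1, a subunit of the AP-1 transcription factor, gave -1.57 by its probe, at a processed signal of 5141 in mock cells and 1726 after miR-130-3p, against -0.27 with miR-130-5p and no lower than -0.68 on any of the other 7 arrays. THOP1, a peptidase that degrades short peptides in the cytosol, gave -1.44 at 15736 and 5797, against -0.07 with miR-130-5p and -0.16 to 0.26 over the 7 others. These were the steepest 8mer probes, and their normexp ratios were -1.42 and -1.39. CLN6, a protein of the endoplasmic reticulum that is mutated in a neuronal ceroid lipofuscinosis, gave -0.87 against -0.34 to 0.58. LINC00116, a transcript listed as noncoding in the array annotation, gave -0.85 against 0.02 to 0.47. Each of these 4 genes had 1 passing probe, so no second probe checks them. MREG, known for its part in melanosome transport, gave -1.62 by the probe with the match and -1.28 by its other probe, against 1.04 for the gene with miR-130-5p. PDZD11 held a match in each of its probes. The 8mer did not go with a low ratio everywhere, and the probe of H19, an imprinted noncoding RNA, gave 1.04. Of the 62 lower genes, 5 (8.06%) had a probe with a 7mer or 8mer, namely MREG, PDZD11, PHF20, PRKCQ-AS1 and UBE3C, against 2 of the 151 higher genes (1.32%) and 79 of the 5368 genes with at least 2 probes (1.47%).

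Among 25 genes reported as targets of the miR-130 family, 24 were measured and MEOX2 was not. For single lists, genes with any number of probes were counted, and over all 23206 genes 1.81% had a median of -1 or less and 6.53% of 1 or more. Of the 24, only ACVR1 was at -1 or less, TNF and INHBA were at 1 or more and 21 lay between. ACVR1, a BMP type I receptor, gave -1.02 (probes -1.17 and -0.87), against 0.21 with miR-130-5p and -0.05 to 0.47 in the other lines. PPARG, the nuclear receptor of adipocyte differentiation, gave -0.98 (probes -1.18 and -0.79), against -0.11 and -0.51 to -0.01. Under normexp ACVR1 gave -0.53 and PPARG -0.77. Both were among the 5 genes that lay below all other arrays, of 23 that at least 4 of them measured, whereas 15.9% of all 21510 genes so measured lay below and 13.3% above.

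The other reported targets named here showed small or mixed values. IRF1 gave -0.55, CSF1 -0.44, CYLD -0.29, CDKN1A -0.27, ZEB1 -0.25, ESR1 -0.21 and TGFBR2 -0.02. RUNX3 gave 0.03, TP53INP1 0.11, ATXN1 0.15, SMAD4 0.21, HOXA5 0.26, DICER1 0.27, ATG2B 0.36, TSC1 0.42, ABCA1 0.55 and KLF4 0.60. INHBA, a subunit of activins, gave 1.21, and also 1.49 with miR-130-5p. TNF gave 1.03 with mock cells not well above background, and its limit, taken as above, was 1.04-fold, which shows no rise. ESR1, RUNX3 and ABCA1 were likewise not above background in mock cells. The probes of TSC1 (-0.55 and 1.38) and of ABCA1 (-0.71 and 1.81) were of opposite sign. The median of the 24 was 0.13, against 0.03 over all genes, but it was -0.02 under normexp and -0.14 with both channels above background, so its sign depended on the processing of dim probes.

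Genes of cholesterol synthesis gave ratios above 0 after miR-130-3p, and 6 of the 12 enzymes were at 1 or more. Cells make cholesterol through the mevalonate pathway, whose enzyme genes are driven by the transcription factor SREBF2 when sterols are low, and also take it up from lipoproteins. Of 31 genes on the list, 30 were measured, 8 had a ratio of 1 or more and none of -1 or less. Over all genes these shares were 6.53% and 1.81%. The list median was 0.67 against 0.03 over all genes, with 0.25 on the miR-130-5p array and -0.16 to 0.36 on all 7 others. It was 0.39 under normexp and at least 0.39 under each alternative.

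All 12 enzymes of synthesis were above 0, from 0.42 to 1.80, and 11 of them lay above every other array, against 13.3% of all genes. HMGCS1, which makes HMG-CoA, gave 1.80 at 498 in mock cells and 1741 after miR-130-3p. It was also high with miR-130-5p (1.504), with si-PIR-3 in PC3 (1.621) and with miR-204-5p in MDA-MB-231 (1.265). DHCR7, of the last steps of the pathway, gave 1.32 at 11454 and 28545, against 0.33 with miR-130-5p and -0.13 to 0.72 in the other lines. LSS, which closes the sterol rings, gave 1.30 (probes 0.86 and 1.74), ACAT2, which makes acetoacetyl-CoA, gave 1.18 and SQLE, the squalene epoxidase, gave 1.14. IDI1 gave 0.997 (just under the threshold), MVD 0.98, FDPS 0.73, FDFT1 0.69 and MVK 0.42. MVK was the enzyme within the range of the others. The median of the 12 enzymes was 1.07, and 0.998 under normexp. On the miR-130-5p array the enzymes ran from -0.47 to 1.504 with a median of 0.30, and in the other lines their medians lay between -0.16 and 0.51. LSS was the only enzyme with more than 1 probe, and the division of the list by role was made after its values had been seen.

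The genes for uptake and regulation gave values of both signs. LRP8 (-0.48), a lipoprotein receptor, and MYLIP (-0.68), a ubiquitin ligase that degrades lipoprotein receptors, were each below every other array, by 1 probe each. SCARB1, the receptor of high density lipoprotein, gave 1.08 at 16701 and 35186, and the endocytic receptor LRP1 gave 0.70, both above every other array. LRP1 was dim, with probes at 0.32 and 1.08 that gave 0.09 and 0.16 under normexp. Its higher probe was not above background in mock cells. VLDLR gave 0.64. INSIG1, which retains the SREBF2 complex in the endoplasmic reticulum, gave 1.56 on both PANC1 arrays, and its ratio with si-PIR-3 in PC3 was higher still, at 1.995. SREBF2 gave 0.42, SREBF1 -0.14, SCAP -0.05, INSIG2 0.10, NR1H2 -0.43 and NR1H3 -0.09. Of the transporters, NPC1 gave 0.36, NPC2 0.02, SOAT1 0.43, ABCA1 0.55 and ABCG1 0.90, the last 2 with no probe above background in mock cells.

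**Figure D4:**
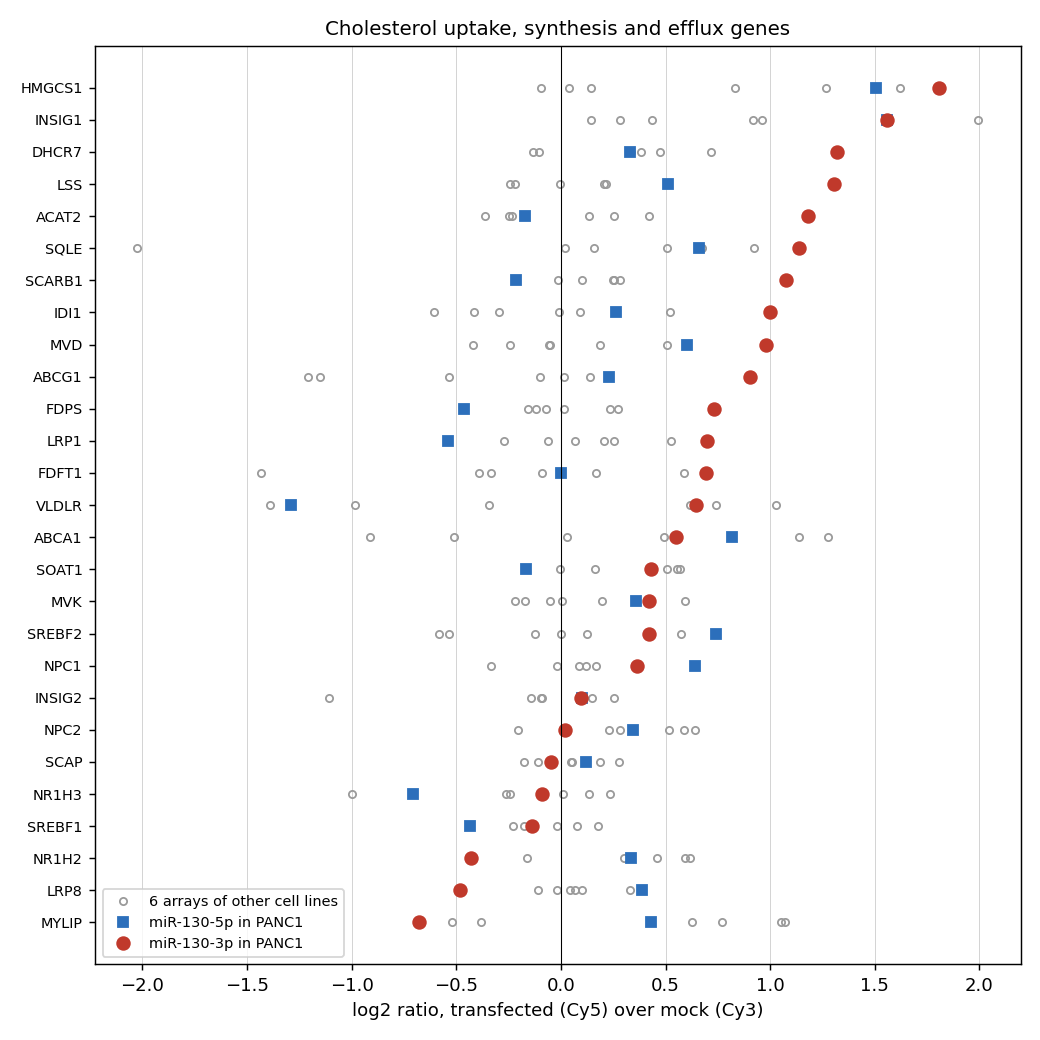
Each row is one of the measured genes of the cholesterol list described here, with the log2 ratio of transfected over mock cells on the horizontal axis, miR-130-3p in red, miR-130-5p in blue and the 6 arrays of other lines in grey. The enzymes of synthesis from HMGCS1 (1.80) to FDFT1 (0.69) have the red circle to the right of all other symbols, whereas LRP8 (-0.48) and MYLIP (-0.68) have it to the left of all of them.

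Genes of TGF-beta and BMP signalling, in which activated receptors phosphorylate SMAD transcription factors, had a median of 0.46, against 0.31 with miR-130-5p and -0.07 to 0.29 in the other lines. Under normexp the median was 0.20. Of 37 measured genes, 7 were at 1 or more and 2 at -1 or less, against 6.53% and 1.81% of all genes. Among ligands, GDF15 gave 1.59 at 47223 and 141915, against -0.02 with miR-130-5p, INHBA gave 1.21 and INHBB -0.68. Among receptors, ACVR2B gave 1.53, TGFBR3 1.66 with mock cells not above background (a limit of 1.20-fold) and ACVR1 -1.02. BAMBI, a pseudoreceptor that blocks signalling, gave 1.83, against 0.55 with miR-130-5p and -0.28 to 0.40 in the other lines, and SKIL, a repressor of SMADs, gave 1.08. CTGF (now CCN2), a matricellular protein, gave 2.02 at 2706 and 11010, against 0.46 with miR-130-5p and 0.34 to 1.01 in the other lines. Of the genes named in this paragraph, only ACVR1 had more than 1 passing probe, so no second probe checks the rest.

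Of 25 measured genes of the G1/S transition, 4 were at 1 or more and none at -1 or less, against 6.53% and 1.81% of all genes. The list median was 0.12. CDK6, a kinase that phosphorylates RB1, gave 2.27 by 1 bright probe, at 6250 in mock cells and 30045 after miR-130-3p, against -0.77 with miR-130-5p. It also reached 2.03 on an array of another line. CDC25A, the phosphatase that activates CDK2, gave 1.67 against -0.23 and -0.31 to 0.81, and E2F7, a repressor of E2F targets, gave 1.17 (probes 1.095 and 1.24). CCND2 gave 1.53 but 0.41 under normexp. The lowest members were CCND3 (-0.74), CDKN1A (-0.27) and CDK2 (-0.26). Among the genes with a ratio given here, E2F7 alone had more than 1 passing probe.

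Of 28 genes of the PI3K and mTOR pathway, 3 were at 1 or more and none at -1 or less, against 6.53% and 1.81% of all genes. The median was 0.26 against 0.04 with miR-130-5p. It was 0.11 under normexp. DEPTOR, an inhibitor of mTOR, gave 2.18 at 123 in mock cells and 554 after miR-130-3p, against -0.95 with miR-130-5p. PHLPP1, a phosphatase of AKT kinases, gave 1.70 with mock cells not above background (a limit of 1.05-fold, which shows no rise). The lowest were PIK3CB (-0.98), the beta catalytic subunit of PI3K, EIF4EBP1 (-0.28) and AKT1 (-0.27). Each gene with a ratio given here had 1 passing probe.

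Of 26 measured epithelial and mesenchymal genes, 5 were at 1 or more and 1 at -1 or less, against 6.53% and 1.81% of all genes. The median was 0.23 against 0.00 with miR-130-5p. It was 0.087 under normexp. COL1A1, a chain of type I collagen, gave 2.61 at 876 in mock cells and 5332 after miR-130-3p, against 0.05 with miR-130-5p and -0.28 to 1.72 in the other lines. SNAI1, a repressor of epithelial genes, gave 1.16 against 0.92. COL3A1 (3.03), GRHL2 (1.35) and ZEB2 (1.21) had no mock signal above background. Their limits were 1.22-fold, 1.03-fold and 1.02-fold, and those of GRHL2 and ZEB2 show no rise. CLDN3, a tight junction protein, gave -1.38 at 1120 and 431, against -0.15 with miR-130-5p and -0.81 to 0.02 in the other lines. KRT19, the ductal keratin, gave -0.94 and CLDN4 -0.88. All genes with a ratio given in this paragraph had 1 passing probe each.

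Of 35 measured interferon-stimulated genes, whose products act against viruses, 3 were at 1 or more and 1 at -1 or less. Over all genes the shares were 6.53% and 1.81%. The list median was 0.06 against -0.37 with miR-130-5p and -0.56 to 0.41 over all 7 others. The highest were RSAD2 (1.78), CXCL10 (1.66) and IFI44 (1.48). RSAD2 and CXCL10 had no mock signal above background, with limits of 1.19-fold and 1.03-fold, and that of CXCL10 shows no rise. The lowest included XAF1 (-1.06) and BST2 (-0.76). IFI44 and XAF1 were also dim, each by 1 probe, with normexp ratios of 0.40 and -0.18. On the miR-130-5p array XAF1 gave -2.001. Of 33 autophagy genes none passed -1 or 1, and the median was -0.13, or -0.036 under normexp. ATG7, an activating enzyme of autophagosome formation, gave -0.93 (probes -1.13 and -0.73) against 0.12 with miR-130-5p and -0.18 to 0.45 in the other lines. TP53INP2 gave -0.64 and ATG4D -0.62, whereas GABARAPL1 gave 0.64, SQSTM1 0.39 and ATG2B 0.36. Of 13 genes of the RNA silencing machinery none passed -1 or 1, and the median was 0.07, or 0.13 under normexp, with AGO4 (-0.29), AGO1 (-0.11) and TNRC6B (-0.10) lowest and TNRC6A (0.87), TNRC6C (0.53) and TARBP2 (0.31) highest.

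**Figure D5:**
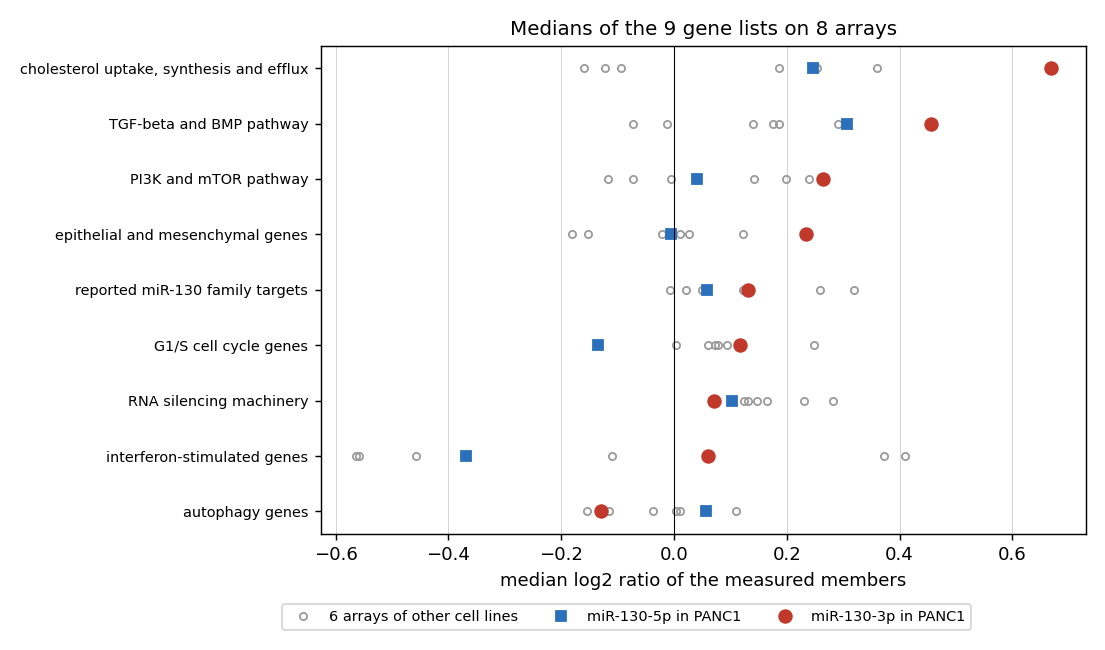
For each of the 9 gene lists, the horizontal axis gives the median log2 ratio of its measured members, with miR-130-3p in red, miR-130-5p in blue and the 6 arrays of other lines in grey. The cholesterol list (0.67) stands farthest to the right of the other arrays, and the reported targets (0.13) and the G1/S genes (0.12) lie among them.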

How the data were processed

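The authors deposited the output of Agilent Feature Extraction 11.5.1.1 for each array. The deposited intensity of each dye is the scanned brightness on a linear scale, and the deposited log10 ratio (Cy5 over Cy3) is the one that the scanner software computed after it had subtracted background and normalized the dyes. The ratios in their value table were identical (largest difference 0), and all of its columns were assigned to samples. The deposited log10 ratios were turned to the log2 scale. Control and outlier spots (149 on this array) were left out, spots of a probe were averaged, and a gene took the median of its probes that were well above background in at least 1 channel. No spot was saturated, and all 8 arrays shared 1 slide and 1 scan. The normexp ratios used limma 3.58.1 in R 4.3.3 on the mean intensities with an offset of 50. Aligned channels for lower limits used Aquantile, and the limit took the higher of the floor of the dim channel and the probe's own signal there.

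The members, lists and rules were chosen with earlier results of these data known. The genes named were the 15 lowest and 10 highest genes with at least 2 agreeing probes outside the range of the other 7 arrays (at least 4 measured), all measured reported targets, members of other lists at -1 or 1 and the 3 lowest and highest of each list. Other names were chosen after values were seen. Some genes that these rules select are not reported here, and counts and medians include them. RefSeq accessions were listed for 31770 probes. Of these, 31038 matched the RefSeq gene table (GRCh38.p14), 27679 under an unchanged symbol. On simulated ratios for miR-130-3p versus mock over 5368 genes, the rule called 200 of 200 changed genes and 0 unchanged genes. Every planted change lay well past the threshold and the noise was that of a typical gene, so this outcome was close to fixed in advance. It checks the code and says nothing of calls near the threshold or of dim genes. The simulation holds probe noise only. Precision is limited by the number of arrays, 1 per condition. Seed matches in full untranslated regions were not analysed here. Figures used matplotlib 3.10.9.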

Additional observations from a re-analysis of the deposited data

How the results depend on the processing

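Scanner ratios gave 62 lower and 151 higher genes, of which 50 and 113 lay outside the other arrays. These became 7, 18, 7 and 16 with normexp and loess, and 18, 29, 16 and 26 with loess and no background correction. The calls outside the other arrays that were shared by scanner and normexp ratios numbered 7 and 15, a comparison chosen after seeing the data. Without the filter on dim probes, 119 genes were lower, 96 of them outside the range. With both channels above background, 51 were higher, 48 outside the range. The brightest probe, which admits genes with 1 probe, gave 440 and 1497, with 283 and 683 outside. A threshold of 1.5 gave 9 and 38, one of 0.5 gave 428 and 556, and every probe past the threshold gave 31 and 72. Of the genes outside the range, 28 and 68 also differed from the miR-130-5p array by 1 or more. Subtracting the mean of the other arrays left 58 lower and 107 higher genes with at least 2 agreeing probes, and subtracting miR-130-5p alone left 139 and 290. The difference of the 8mer and 7mer probes from all probes (-0.16) was -0.054 with normexp, -0.10 without background correction, 0.0 without the filter, where many dim probes are listed at a ratio of exactly 0, and -0.25 among the brighter probes. The letters of the other strand gave 0.0008, and these last 2 settings were chosen after seeing the data. The median of the reported targets (0.13) was -0.017 with normexp, 0.0045 without background correction, -0.14 with both channels, -0.23 with the brightest probe and -0.13 after subtraction of the other arrays. That of the cholesterol list (0.67) was 0.39 with normexp and 0.39 without background correction. Centring, the deposited table, the mean over probes, leaving out probes with a run of 4 G and leaving miR-130-5p out of the background moved none of these numbers by more than the limits set for them. The cause of the other shifts was not tested. All 25 extreme genes kept their sign in all 220 recomputed values. They had been picked for passing probes that share a sign, so settings that only average, choose or drop such probes could not reverse it. The search of whole untranslated regions was not run. No paired analysis was possible because each condition had 1 array and no test was made.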
